A study of Homo sapiens with 3 samples.

Results

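The 48 interferon-stimulated antiviral genes described here are the genes of a fixed list of symbols, all found among the 19215 genes of the deposited table, that interferons are known to induce and that lie outside the MHC, GBP, TRIM, IRF and STAT families. They were measured by RNA sequencing in the chondrocyte line C28/I2, which is of human origin and carries the large T antigen of a virus that keeps it dividing. The 3 listed samples form 1 group of spheroids, in which cells grow as aggregates, kept for 48 h in 0.5% DMSO, a solvent for drugs. Monolayer cultures of the line, whose treatment was not given, enter only through the spheroid to monolayer fold changes in the authors' deposited table. The labels do not say whether the 3 spheroid samples came from separate cultures, so their spread may be technical.

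Interferons are cytokines that cells release on sensing viral nucleic acids. Type I and type III interferons signal through Janus kinases to a complex that holds STAT2 and IRF9 and binds the interferon-stimulated response element in promoters. Interferon-gamma acts mainly at the gamma-activated site. The induced proteins bind or degrade viral RNA, block viral entry and release, or attach the ubiquitin-like protein ISG15 to other proteins.

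Nearly the whole set was higher in spheroids. The set, and the motifs described below, were chosen with earlier results of these data known, so their counts are a description. In the authors' deposited table, of the 48 genes 43 passed an adjusted p under 0.05 with a log2 fold change of at least 1, against 11.5% of the 18467 genes tested. None of the 48 passed in the lower direction, against 9.34% of the genes tested in the authors' deposited table. At an unadjusted p under 0.05 the authors' deposited table has 47 of the 48 higher and none lower. The share of all genes tested at this looser cut was not counted, so that count has no background beside it. All 48 fold changes in the authors' deposited table lay above 0, as did 52% of those of all genes tested. Their median log2 fold change was 2.0 in the authors' deposited table (quartiles 1.48 and 2.90), beside a median of 0.04 (quartiles -0.55 and 0.72) over all genes tested.

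The response was graded. With no minimum fold change 46 of the 48 were higher in the authors' deposited table, against 26% of all genes tested, and with a minimum of 2 on the log2 scale 24 were, against 5.05%. RSAD2, IFIT2, CMPK2, OASL and ISG20 stood at 4.07 to 5.93 on the log2 scale per the authors' deposited table, which is 16.8 to 61.0 times the monolayer level. The genes that did not pass were LGALS3BP, PARP10, APOL2, EPSTI1 and LAMP3. The nearest genes inside the fold threshold were APOL6 at 1.13, PARP12 at 1.25 and SP110 at 1.35, and the nearest outside it were APOL2 at 0.96 and PARP10 at 0.80, all log2 fold changes in the authors' deposited table. That table gives no standard error for a fold change, so differences in fold change between genes were not tested.

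**Figure D1:**
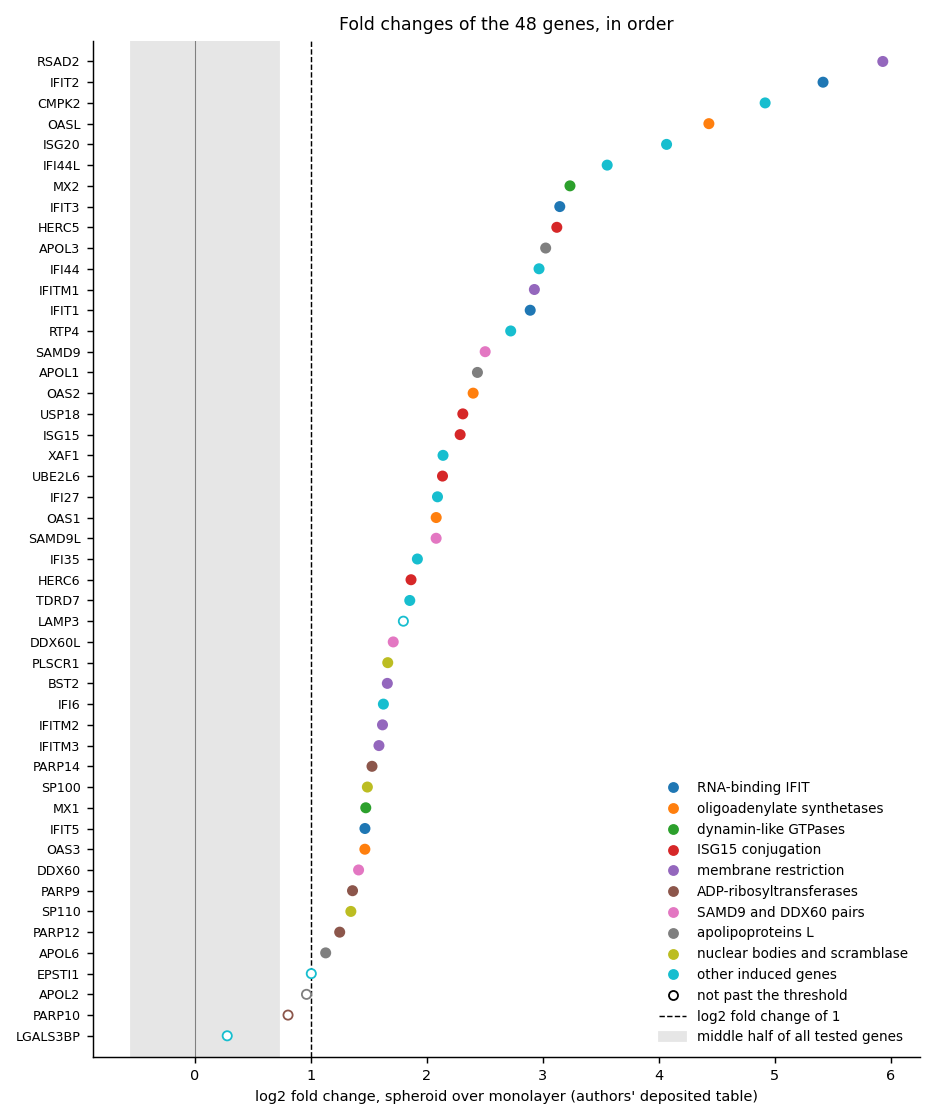
Log2 fold change of each of the 48 genes between spheroid and monolayer cultures (x axis, authors' deposited table), in order, coloured by role; open circles did not pass the threshold, the dashed line marks a log2 fold change of 1 and the grey band spans the quartiles of all tested genes, from -0.55 to 0.72. The genes run from LGALS3BP at 0.28 to RSAD2 at 5.93, and LGALS3BP is the gene inside the grey band.

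Levels in the spheroids spread far more widely than the libraries did. The mean level was at least 1 FPKM (fragments mapped to a gene, scaled to its length and to the library's mapped fragments) for 46 of the 48 genes, 15 reached 100 FPKM and 4 reached 1000 FPKM. The median of the 48 mean levels was 59.9 FPKM, beside 10.7 FPKM over the 12410 genes of the table at 1 FPKM or more. Among genes whose mean level reached 1 FPKM, 43 of 46 were higher in the authors' deposited table, against 12.7% of all such genes. The coefficient of variation over the 3 libraries had a median of 7.56% for the 46 genes, beside 8.37% for all genes at that level, and ran from 2.34% for PLSCR1 to 24.5% for ISG15.

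**Figure D2:**
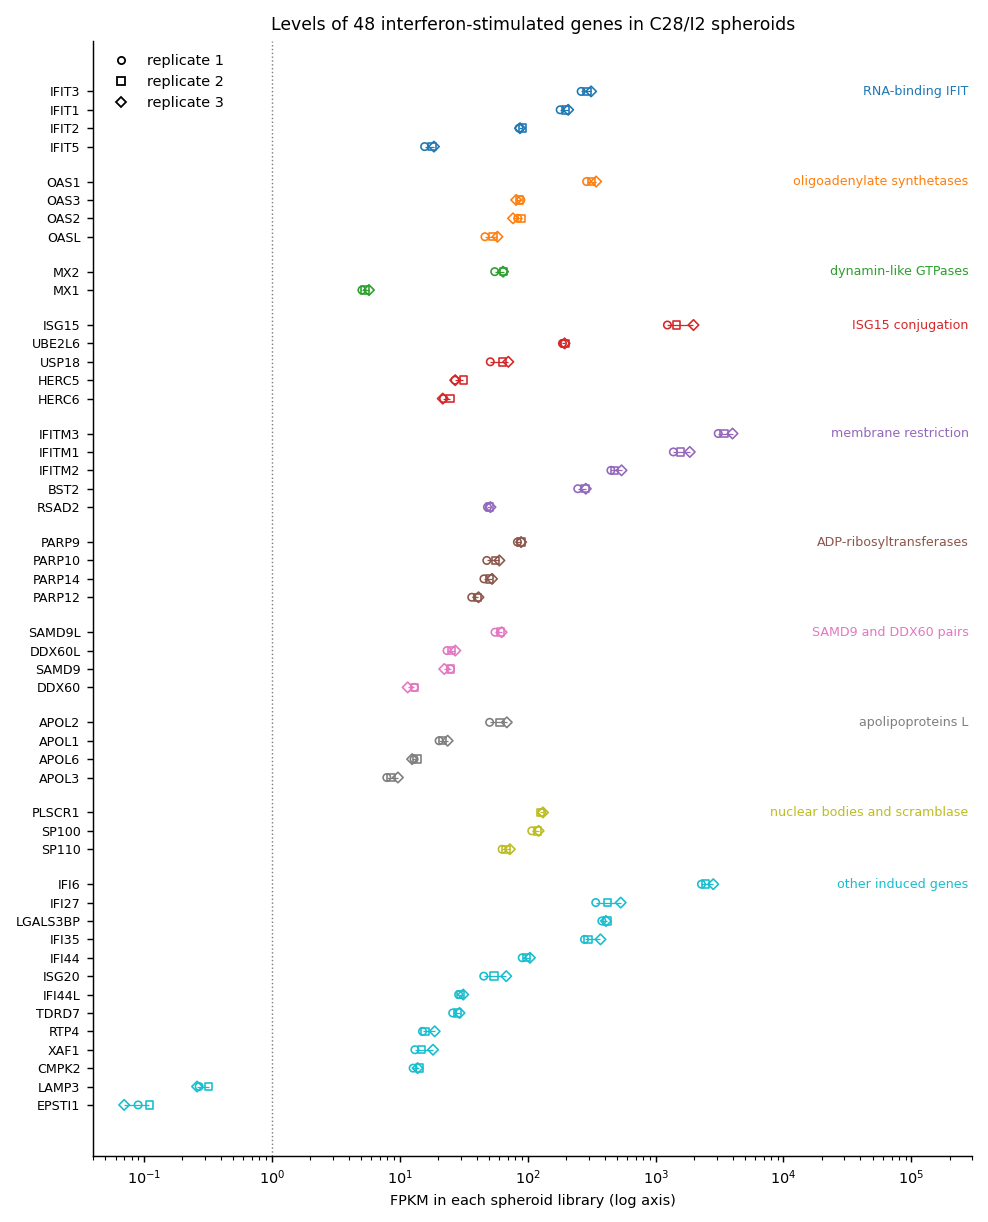
FPKM of each of the 48 genes in the 3 spheroid libraries (x axis, log scale), grouped by role, with 1 symbol per replicate and a line from the lowest to the highest; the dotted line marks 1 FPKM. IFITM3, IFI6, IFITM1 and ISG15 lie above 1000 FPKM, EPSTI1 and LAMP3 below 1 FPKM.

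The libraries were not equal in these genes. Replicate 1 was the lowest library for 39 of the 46 genes at 1 FPKM or more, and replicate 3 the highest for 33. Over all genes at that level, replicate 1 was the lowest for 33.7% and replicate 3 the highest for 41.2%. On the log2(FPKM + 1) scale, each gene's distance to its own mean had a median of -0.11 in replicate 1, 0.02 in replicate 2 and 0.09 in replicate 3 over the 46 genes, and within 0.01 of 0 in each library over all genes. The FPKM values of all genes summed to 571705, 581522 and 623496 in replicates 1, 2 and 3, and their part in this was not tested. The 48 genes made up 2.11%, 2.3% and 2.49% of those sums. The 3 highest genes of the set in each library held 55.9%, 55.5% and 56.8% of the set's own sum, so these shares mostly follow a few genes.

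The label of the cells was set against markers. Of 11 chondrocyte markers 2 reached 1 FPKM, SOX9 at 6.71 ± 0.0866 and COL11A2 at 2.11 ± 0.506 FPKM (SD, n = 3), and COL2A1, the main cartilage collagen, was listed at 0.03, 0.01 and 0.01 FPKM. Most chondrocyte markers thus lay under 1 FPKM. Of the 11 the authors' deposited table has 2 higher, 2 lower and 7 that did not pass. Over all genes tested, 11.5% were higher and 9.34% lower in that table. The 2 higher markers were SOX5 and COL9A1, at means of only 0.04 and 0.13 FPKM. The 2 lower were ACAN and HAPLN1, at means of 0.73 and 0.07 FPKM. Of 5 fibroblast-like markers 4 reached 1 FPKM, with a summed level of 2885 to 3034 FPKM per library. The authors' deposited table has PDGFRA higher, THY1 lower and 3 that did not pass. THY1 was listed at only 0.03 FPKM in each library. The 3 were COL1A1 at -0.95, VIM at -0.67 and COL1A2 at 0.14 on the log2 scale of that table. COL1A1 and VIM were past the p threshold alone. Of 14 leukocyte markers 6 reached 1 FPKM, and their summed level was 714 to 789 FPKM per library, most of it CD68 at 702 ± 41.0 FPKM (SD, n = 3). The others that reached 1 FPKM were CD3D at 32.6, CSF1R at 6.27, NCAM1 at 6.15, LYZ at 1.37 and CD3E at 1.09 FPKM on average. PTPRC, the defining surface phosphatase of leukocytes, was listed at 0, 0.01 and 0.06 FPKM and the B-cell gene MS4A1 at 0, 0.04 and 0 FPKM. Among 5 genes of plasmacytoid dendritic cells, which are strong interferon producers, 3 reached 1 FPKM, GZMB at 5.07, TCF4 at 4.50 and IL3RA at 3.53 FPKM on average, and the summed level was 11.7 to 14.4 FPKM per library. The defining genes LILRA4 and CLEC4C were listed at 0 in each library and at 0.10, 0 and 0 FPKM. In the authors' deposited table, of the 14 leukocyte markers 4 were higher, CD68 by 2.16 and CD3D by 1.88 on the log2 scale, and 3 of the 5 plasmacytoid genes, GZMB, IL3RA and TCF4, with none lower. Of 3 endothelial markers PECAM1 was higher in the authors' deposited table, with a level of 0.657 FPKM, and CDH5 was at most 0.02 FPKM. The part of these markers in the results was not tested. In RNA from whole cultures, fewer cells expressing a gene and less RNA per cell cannot be told apart.

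Promoter sequence was available for 36 of the 48 genes in the RefSeq promoter table (GRCh38.p14), which gives 250 bases before and 50 bases after each annotated start and up to 3 windows per gene for them. IFIT2, OAS2, OASL, MX2, USP18, IFITM2, PARP10, LAMP3, APOL1, APOL2, APOL3 and APOL6 had no window there. The response element was searched on both strands as GAAA, any 2 bases, then GAAA. It was found for 26 of the 36 genes (72.2%), against 4.38% of the 27305 genes in that RefSeq table. Counted by window, 31 of 50 windows (62%) held it, against 3.57% of all windows. Followed by a further C, it was found for 21 of the 36 genes (58.3%), against 0.952% of all genes.

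Elements of 12 of these 26 genes are shown as examples, and further sites of some of them are not. This element was chosen because it was found in more of the genes than the other motifs searched. No rule for picking the 12 genes or their sites was recorded. Each line reads 5′ to 3′ along the strand that carries the element, with the 10 bases of the match in capitals and 5 flanking bases on each side.
RSAD2: catgtGAAACTGAAAgttga
ISG20: aactaGAAACTGAAAcaggg
IFI44L: gtgagGAAAAAGAAAgttag
IFIT3: aactgGAAAGTGAAActaat
HERC5: cagtgGAAAACGAAAcataa
IFI44: gaaagGAAACTGAAActcag
IFIT1: aagggGAAAGTGAAActaaa
RTP4: acaccGAAACTGAAActgtt
SAMD9: gaaatGAAACTGAAAccaaa
IFI27: tccagGAAACCGAAActgca
IFITM3: gttgaGAAACCGAAActact
LGALS3BP: ttctgGAAATCGAAAgtaga
The variable bases in the middle were CC or CT in 23 of the 47 distinct sites of the 26 genes, and 36 of the 47 had C as the next base. At least 2 distinct sites were found for 16 of the 26 genes. Matches lay from -196 to 11 bases from the annotated start, with a median of -80, and 30 of 51 matches over all windows began within the 100 bases before a start.

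**Figure D3:**
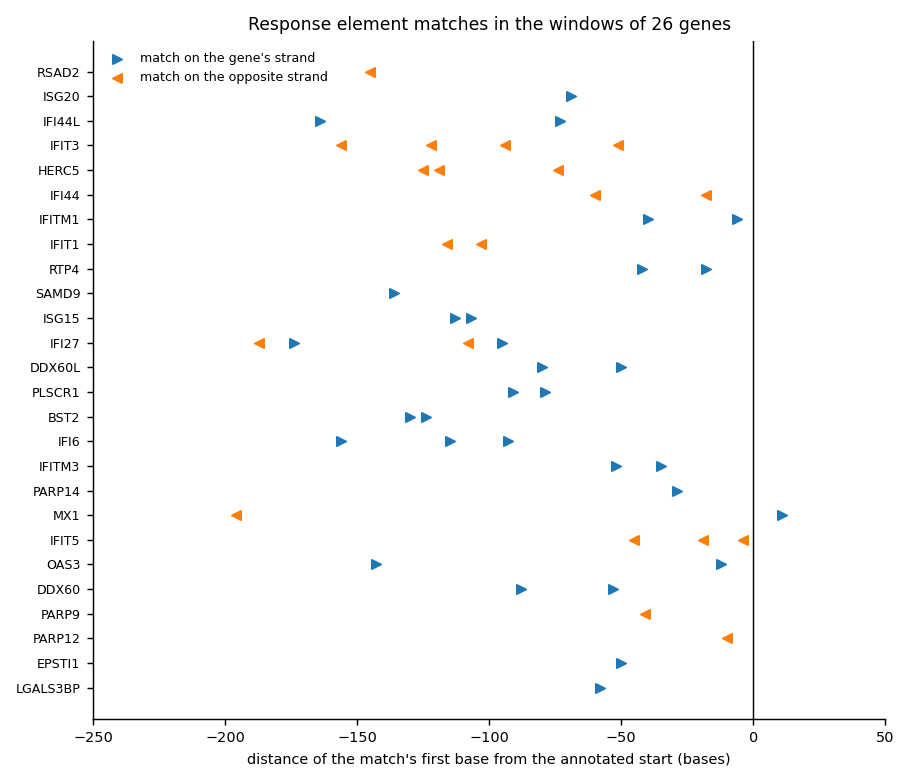
Position of each response element match relative to the annotated start (x axis, bases; negative values lie before the start) for the 26 genes with a match, ordered by fold change with RSAD2 on top; arrowheads give the strand of the match. Genes with several windows have their matches of all windows on 1 row, and the matches lie between -196 and 11 bases.

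Other motifs were less frequent. The gamma-activated site TTCNNNGAA was in the windows of 11 of the 36 genes (30.6%), against 9.38% of all genes, and overlapped 8 of the 51 response element matches. These matches are counted per window, so a site in overlapping windows, as for IFI27, enters from each of them. An NF-kB motif, searched on both strands as GGG, any 3 bases, then TTCC, was found for 3 of the 36 genes (8.33%), against 7.83% of all genes. A TATA box, TATAAA on either strand, was found for 5 of 36 (13.9%), against 14% of all genes. Holding the searched form of the response element did not go with a larger fold change. The median log2 fold change per the authors' deposited table was 1.69 for the 26 genes with it and 2.0 for the 10 without. The 12 genes with no window are in neither group, and looser forms of the element were not searched. Outside the set, 20.4% of 574 tested genes with a window and the element were higher in the authors' deposited table, and 10.5% of 13678 without it. A match is a description of the sequence and does not show binding.

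The RNA-binding IFIT genes were all higher. The share to set beside the counts of this and the other role groups is 11.5% of all genes tested, per the authors' deposited table. Some IFIT proteins seize foreign RNA ends, and IFIT3 stabilises IFIT1. IFIT3 reached 262, 290 and 313 FPKM in replicates 1, 2 and 3, and IFIT1 reached 180, 197 and 207 FPKM. IFIT2 stood lower, at 85.7, 91.0 and 87.1 FPKM, and IFIT5 lowest, at 15.6, 17.9 and 18.5 FPKM. No library of one IFIT gene overlapped those of another. The order by fold change was different: the authors' deposited table has IFIT2 at 5.41, IFIT3 at 3.15, IFIT1 at 2.89 and IFIT5 at 1.47 on the log2 scale, with adjusted p from 8.35e-34 for IFIT5 to a listed 0 for IFIT2 by DESeq2. The 4 genes are neighbours in the annotation, with IFIT1B between them.

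The promoter of IFIT1 shows a tight arrangement of the element, with 2 copies close together. The 250 bases before its start lie on the plus strand at chr10:89392373-89392622 (GRCh38.p14), with the matches, which are on the opposite strand, in capitals.
IFIT1: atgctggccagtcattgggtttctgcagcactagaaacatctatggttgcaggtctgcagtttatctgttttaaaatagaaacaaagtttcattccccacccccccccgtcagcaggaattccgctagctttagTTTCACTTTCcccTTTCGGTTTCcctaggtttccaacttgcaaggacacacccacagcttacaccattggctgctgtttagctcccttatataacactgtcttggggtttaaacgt

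The oligoadenylate synthetases make short oligoadenylates on binding double-stranded RNA, except OASL, which has no such activity and assists RNA sensing. OAS1 was listed at 289, 317 and 343 FPKM, OAS3 at 88.4, 86.6 and 81.3, OAS2 at 83.6, 89.6 and 76.8, and OASL at 46.4, 53.5 and 58.0 FPKM. OAS1 lay above the others in every library, while the values of OAS2 and OAS3 overlapped. OASL had the largest log2 fold change of the family per the authors' deposited table, 4.43, followed by OAS2 at 2.40, OAS1 at 2.08 and OAS3 at 1.47.

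The dynamin-like GTPases MX1 and MX2 bind viral nucleoproteins or capsids. MX2, which acts against lentiviruses, was listed at 55.3, 64.9 and 64.2 FPKM. MX1, the broader antiviral member, was listed at 5.06, 5.34 and 5.74 FPKM, the lowest mean level of any of the 46 genes at 1 FPKM or more. Both rose, with log2 fold changes of 3.23 for MX2 and 1.47 for MX1 per the authors' deposited table (adjusted p = 7.51e-138 and 2.02e-14 by DESeq2). The genes are immediate neighbours.

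ISG15 and the enzymes that handle it all rose, 5 of 5, against 11.5% of all genes tested in the authors' deposited table. ISG15 was listed at 1237, 1452 and 1979 FPKM, 49th among all genes by mean level. Replicate 3 lay 1.60 times above replicate 1, the widest spread among the 46 genes. The conjugating enzyme UBE2L6 varied little, at 187, 196 and 194 FPKM. USP18, which removes ISG15 and dampens the type I receptor, was listed at 51.03, 63.5 and 70.5 FPKM, again lowest in replicate 1. The ligase HERC5 was at 27.0, 31.4 and 27.1 FPKM and its neighbour HERC6, the corresponding ligase in mouse, at 22.0, 24.7 and 21.7 FPKM. Log2 fold changes in the authors' deposited table were 3.12 for HERC5, 2.31 for USP18, 2.29 for ISG15, 2.14 for UBE2L6 and 1.86 for HERC6.

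Before the start of ISG15 the element occurs as overlapping copies, and before that of HERC5 as 3 copies of which 2 overlap, so both are shown with the matches in capitals. The 250 bases lie at chr1:1013247-1013496 and chr4:88456869-88457118, both on the plus strand (GRCh38.p14).
ISG15: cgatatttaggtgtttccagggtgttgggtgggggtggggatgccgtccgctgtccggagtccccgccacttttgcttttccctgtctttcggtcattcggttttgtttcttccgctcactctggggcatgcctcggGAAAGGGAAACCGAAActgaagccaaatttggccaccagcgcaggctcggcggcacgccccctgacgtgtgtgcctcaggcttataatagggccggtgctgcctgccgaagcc
HERC5: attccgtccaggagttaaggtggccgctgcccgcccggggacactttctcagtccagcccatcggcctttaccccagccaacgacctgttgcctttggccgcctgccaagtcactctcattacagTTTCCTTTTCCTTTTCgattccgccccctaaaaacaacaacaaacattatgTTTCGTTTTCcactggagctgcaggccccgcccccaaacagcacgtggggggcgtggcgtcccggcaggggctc

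Genes acting at membranes gave the highest levels and also the largest fold change. IFITM3, which blocks the fusion of viruses with endosomes, was listed at 3089, 3422 and 3996 FPKM, 13th among all genes. IFITM1 was at 1378, 1559 and 1851 FPKM and IFITM2 at 448, 476 and 542 FPKM. These neighbouring genes are similar in sequence and can share reads, so the division between them is uncertain. All rose, with log2 fold changes of 2.93 for IFITM1, 1.62 for IFITM2 and 1.59 for IFITM3 per the authors' deposited table. BST2, or tetherin, which holds budding virions at the cell surface, was at 246, 280 and 285 FPKM with a log2 fold change of 1.66 per the authors' deposited table.

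RSAD2 encodes viperin, an enzyme that makes a chain-terminating nucleotide from CTP, and CMPK2, beside it in the genome, encodes a nucleotide kinase of mitochondria. RSAD2 was listed at 48.5, 50.3 and 51.2 FPKM and CMPK2 at 12.7, 14.2 and 13.8 FPKM. The libraries of each gene lay within 1.06 and 1.12 times of each other. Their log2 fold changes in the authors' deposited table were 5.93 and 4.92, or 61.0 and 30.2 times the monolayer level (adjusted p = 6.67e-263 and 1.20e-90 by DESeq2). By fold change RSAD2 ranked 65th and CMPK2 126th among all tested genes of the authors' deposited table. Their annotated spans overlap, and without strand information reads from the overlap cannot be told apart.

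RSAD2 has 2 annotated windows, of which the downstream one holds the element. It is shown because RSAD2 led the set, with the match in capitals, at chr2:6877527-6877776 on the plus strand (GRCh38.p14).
RSAD2: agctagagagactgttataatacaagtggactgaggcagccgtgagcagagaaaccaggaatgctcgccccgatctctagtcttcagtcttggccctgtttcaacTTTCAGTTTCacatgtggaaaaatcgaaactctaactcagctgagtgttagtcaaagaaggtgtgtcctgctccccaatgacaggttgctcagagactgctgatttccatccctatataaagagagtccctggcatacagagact

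The ADP-ribosyltransferases had the lowest median log2 fold change of the role groups, 1.30 with 3 of 4 genes higher, per the authors' deposited table. PARP9, which works with the ubiquitin ligase DTX3L, was listed at 83.2, 89.0 and 88.8 FPKM. PARP10 was at 47.9, 56.0 and 60.1 FPKM, PARP14 at 45.5, 50.4 and 52.6, and PARP12 at 36.5, 40.6 and 41.2 FPKM. PARP10 and PARP14 overlapped, and PARP9 lay above the others in every library. In the authors' deposited table PARP14 stood at 1.53, PARP9 at 1.36 and PARP12 at 1.25 on the log2 scale. PARP10 stood at 0.80 in the authors' deposited table, with an adjusted p of 2.53e-09 by DESeq2, so that it was past the p threshold but not the fold threshold.

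SAMD9 and its neighbour SAMD9L, which restrict poxviruses and slow cell growth, had log2 fold changes of 2.50 and 2.08 per the authors' deposited table. SAMD9L was listed at 55.6, 61.2 and 62.6 FPKM and SAMD9 at 24.9, 24.98 and 22.3 FPKM. The helicase-like genes DDX60 and DDX60L, also neighbours, had 1.41 and 1.71 per the authors' deposited table. DDX60L lay at 23.4, 25.4 and 27.2 FPKM, above DDX60 at 12.99, 12.99 and 11.5 FPKM. The genes of each of these loci did not overlap in level across the libraries.

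The apolipoprotein L genes diverged, although they share a locus. APOL1, the secreted member that lyses trypanosomes, was listed at 20.3, 21.6 and 23.7 FPKM, and APOL3, an intracellular member, at 7.92, 8.51 and 9.67 FPKM. APOL2 was the most abundant, at 50.5, 61.0 and 68.7 FPKM, and APOL6 was at 12.9, 13.7 and 12.5 FPKM. The authors' deposited table has APOL3 at 3.02, APOL1 at 2.44, APOL6 at 1.13 and APOL2 at 0.96 on the log2 scale. APOL2 had an adjusted p of 1.51e-16 by DESeq2 in the authors' deposited table and missed only the fold threshold. The most abundant member thus had the smallest fold change and the least abundant the largest.

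SP100 and SP110, components of nuclear bodies, and PLSCR1, a membrane scramblase that also restricts viral entry, all rose. Their log2 fold changes in the authors' deposited table were 1.49, 1.35 and 1.66. PLSCR1 was listed at 129, 126 and 132 FPKM, SP100 at 108, 120 and 122 FPKM and SP110 at 63.1, 67.7 and 72.5 FPKM. SP110 lay below the others in every library.

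Of the 13 other induced genes, 10 rose, against 11.5% of all genes tested in the authors' deposited table. IFI6, an antiviral protein of internal membranes, was listed at 2283, 2451 and 2826 FPKM, 23rd among all genes, with a log2 fold change of 1.63 per the authors' deposited table. IFI27 was at 341, 422 and 534 FPKM and IFI35 at 278, 295 and 371 FPKM, both lowest in replicate 1 and highest in replicate 3. Their log2 fold changes were 2.09 and 1.92 in the authors' deposited table. The neighbours IFI44 and IFI44L were listed at 90.7, 98.2 and 104 FPKM and at 28.9, 29.9 and 31.3 FPKM, with log2 fold changes of 2.97 and 3.55 per the authors' deposited table.

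ISG20, an exonuclease that degrades RNA, was listed at 45.4, 54.5 and 68.0 FPKM and had a log2 fold change of 4.07 per the authors' deposited table. Replicate 3 lay 1.499 times above replicate 1. The remaining genes that rose were lower in level: TDRD7, a tudor domain protein, at 27.8 ± 1.74 FPKM, RTP4, a receptor transporter, at 16.5 ± 1.95 FPKM, and XAF1, an antagonist of apoptosis inhibitors, at 15.4 ± 2.58 FPKM (SD, n = 3). RTP4 stood at 2.72, XAF1 at 2.14 and TDRD7 at 1.85 on the log2 scale per the authors' deposited table.

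The 3 genes of this group that did not pass differed in kind. LGALS3BP, a secreted glycoprotein that binds galectins, was abundant at 380, 418 and 409 FPKM, with a log2 fold change of 0.28 per the authors' deposited table (adjusted p = 0.0361 by DESeq2). EPSTI1 was listed at 0.09, 0.11 and 0.07 FPKM and LAMP3, a lysosomal protein of mature dendritic cells, at 0.27, 0.32 and 0.26 FPKM. At 2 decimals such values are coarse. Their log2 fold changes in the authors' deposited table were 1.00 and 1.80, with adjusted p of 0.542 and 0.0607 by DESeq2.

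LGALS3BP holds the element as well, and is shown beside IFI6, the gene of this group with the highest level, to set a gene with a small fold change against one that rose. The 250 bases lie at chr17:78979924-78980173 and chr1:27672193-27672442, both on the minus strand and read along the gene (GRCh38.p14), with matches in capitals.
LGALS3BP: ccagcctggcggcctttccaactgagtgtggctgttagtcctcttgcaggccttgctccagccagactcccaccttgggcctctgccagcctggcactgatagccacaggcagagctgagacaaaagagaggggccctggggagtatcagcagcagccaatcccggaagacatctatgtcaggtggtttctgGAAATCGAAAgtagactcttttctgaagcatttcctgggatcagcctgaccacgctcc
IFI6: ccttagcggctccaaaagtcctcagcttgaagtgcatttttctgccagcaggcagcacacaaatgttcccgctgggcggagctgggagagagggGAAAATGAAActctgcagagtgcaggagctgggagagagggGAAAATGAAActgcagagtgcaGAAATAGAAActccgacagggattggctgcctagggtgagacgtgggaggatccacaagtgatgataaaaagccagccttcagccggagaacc

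Level and fold change showed little rank correlation across the set. Spearman's rho between the mean spheroid level and the log2 fold change of the authors' deposited table was 0.02 over the 48 genes, which share libraries and are not independent. Over all tested genes at 1 FPKM or more it was 0.14. The spheroid libraries enter both quantities. Abundant genes such as IFITM3 and IFI6 had fold changes near 3 times the monolayer level in the authors' deposited table (3.01 and 3.09), while CMPK2, at 13.6 ± 0.781 FPKM (SD, n = 3), had 30.2 times.

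**Figure D4:**
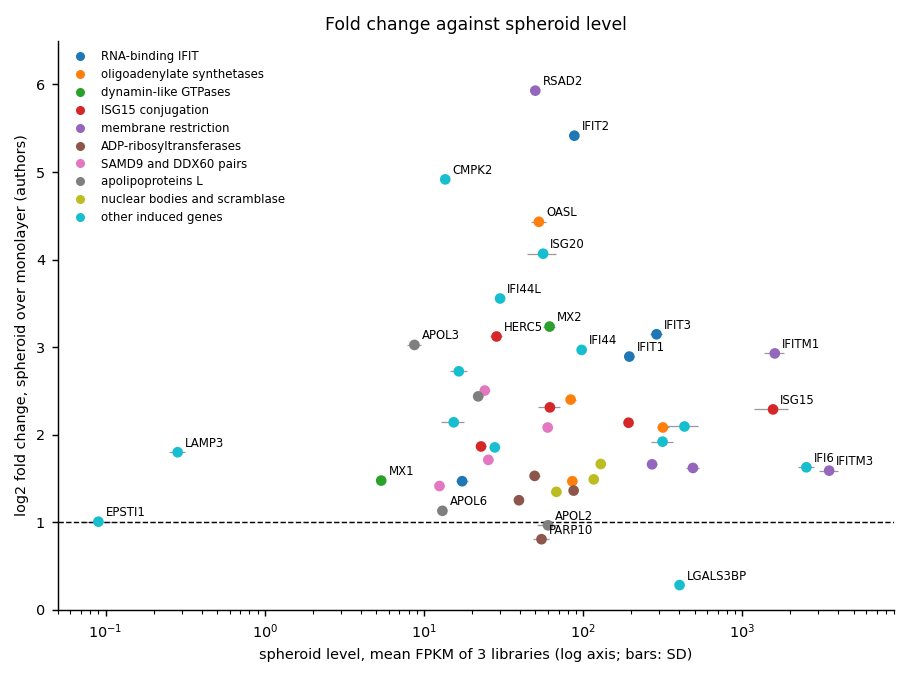
Log2 fold change of the authors' deposited table (y axis) against the mean spheroid level in FPKM (x axis, log scale; bars are SD over 3 libraries) for the 48 genes, coloured by role, with the dashed line at a log2 fold change of 1. RSAD2, IFIT2, CMPK2 and OASL top the plot at 13.6 to 87.9 FPKM, while IFITM3 and IFI6 lie far right with log2 fold changes of 1.59 and 1.63.

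Of the 48 genes, 30 sit in 12 loci with another gene of the set, counting neighbours with at most 3 other protein-coding genes between them. Fold changes within a locus were close for SP110 and SP100 (1.35 and 1.49) and for PARP9 and PARP14 (1.36 and 1.53), on the log2 scale of the authors' deposited table. They were far apart in the IFIT locus, from 1.47 to 5.41, in the APOL locus, from 0.96 to 3.02, and for MX1 and MX2, 1.47 and 3.23, in the same table. The annotated spans of 9 of the 48 genes overlap another protein-coding gene: the IFIT genes with LIPA, RSAD2 with CMPK2, PARP9 with DTX3L, PARP10 with GRINA and SPATC1, and SP110 with SP140. The strandedness of the counting is not stated in the sources used here, so reads in these overlaps cannot be told apart.

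Upstream of these genes, the interferons themselves were scarcely detected. Of 14 ligand genes 13 were in the table and 4, IFNG and IFNK among them, were listed at 0 in the 3 libraries. IFNB1, the interferon that most cells make first on sensing virus, was listed at 0.11, 0.44 and 0.23 FPKM and IFNL1, a type III interferon, at 0.37, 0.49 and 0.39 FPKM. Neither passed, with log2 fold changes of 2.46 and 3.94 per the authors' deposited table (adjusted p = 0.298 and 0.0548 by DESeq2). IFNE, a constitutive interferon of epithelia, was the only ligand to reach 1 FPKM, at 1.43, 1.58 and 2.58 FPKM, with a log2 fold change of -0.63 per the authors' deposited table (adjusted p = 0.0911 by DESeq2). None of the 9 ligands with a fold change passed in either direction in the authors' deposited table. At an unadjusted p under 0.05 IFNL1 was higher and IFNE lower in the authors' deposited table (p = 0.0279 and 0.0495 by DESeq2).

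Receptor and signalling genes had median log2 fold changes of 0.97 and 0.95 per the authors' deposited table, a difference from the 48 genes that was not tested. Of all genes tested, 11.5% were higher in that table. Of 6 receptor genes 3 were higher and 3 did not pass: IFNGR2, IFNGR1 and IL10RB had log2 fold changes of 1.51, 1.12 and 1.04 per the authors' deposited table, while the type I receptor genes IFNAR1 and IFNAR2 stood at 0.67 and 0.91 and missed only the fold threshold. IFNAR1 averaged 13.2 ± 2.14 FPKM and IFNAR2 10.8 ± 0.684 FPKM, and IFNLR1, of the type III receptor, 0.283 ± 0.0950 FPKM (SD, n = 3). Of 8 signalling genes 4 were higher, among them IRF1 at 2.10, JAK2 at 1.49 and STAT2 at 1.22 on the log2 scale per the authors' deposited table. IRF9, which carries the DNA contact of the complex, stood at 0.68 and TYK2 at -0.57 per the authors' deposited table, both past the p threshold alone.

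Among the nucleic acid sensors 6 of 9 were higher. For this and the next 2 lists the share to set beside the counts is 11.5% of all genes tested, per the authors' deposited table. The RNA helicase genes IFIH1 and DDX58 had log2 fold changes of 3.21 and 2.97 per the authors' deposited table, the nucleic acid sensor gene ZBP1 4.65 and the endosomal receptor gene TLR3 2.08. MAVS, the adaptor of the RNA helicases, stood at -0.12 and CGAS, the DNA sensor, at 0.26 per the authors' deposited table, and neither passed. Of 16 other interferon-stimulated effectors 13 were higher, with the death ligand gene TNFSF10 at 5.34 and IFI16 at 1.98 on the log2 scale per the authors' deposited table, and IFIH1 is counted there too. All 8 genes that lean towards interferon-gamma were higher, led by the chemokine genes CXCL10 at 7.28 and CXCL11 at 7.17 in the authors' deposited table, but several of them, such as ICAM1 at 5.02, also answer to NF-kB. The median log2 fold change of these 8 genes was 4.26 per the authors' deposited table. CXCL9 is counted among them, although it was listed at only 0.17, 0.12 and 0.08 FPKM, which is coarse at 2 decimals. Its log2 fold change was 4.52 per the authors' deposited table (adjusted p = 0.0124 by DESeq2).

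**Figure D5:**
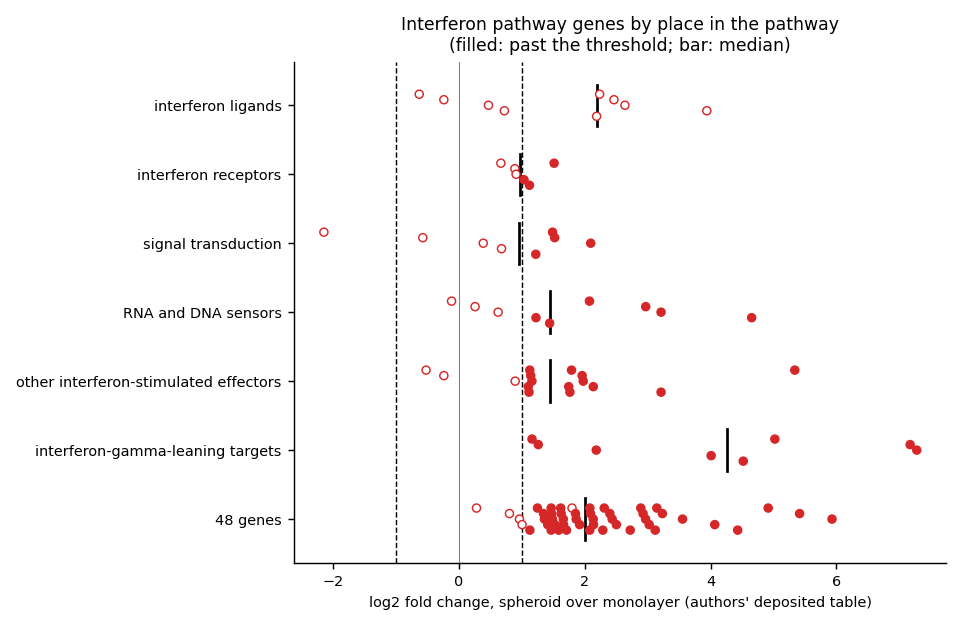
Log2 fold changes of the authors' deposited table (x axis) for the genes of 6 interferon pathway lists and the 48 genes (rows), with 1 circle per gene, filled where it passed the threshold, and a bar at the median; dashed lines mark -1 and 1. No ligand is filled, while 43 of the 48 genes and all 8 interferon-gamma-leaning targets are.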

How the data were processed

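The data are RNA sequencing of 3 spheroid samples of C28/I2 cells in 1 labelled group. The submitters' processing notes name Bowtie2 2.2.5, RSEM 1.2.12, DESeq2 1.4.5 and GRCh38.p13 without saying what each did. The authors deposited FPKM values to 2 decimals per library, per the file headers. The authors' log2 fold change, p-value and adjusted p-value (q-value) are from DESeq2, per the file headers. A positive log2 fold change was read as higher in spheroids, since 356 of 358 genes at 0 in every spheroid library have one below 0. Recomputed Benjamini-Hochberg values differed from the deposited ones by at most 1.3e-15. The table also has 3 FPKM columns named as monolayer, the other arm of every fold change, that match no listed sample. They were not used, so monolayer levels are not given and the comparison was not refitted. Read depth is unknown, since FPKM at 2 decimals gives no counts, and no counting interval is given. No pair of libraries was a copy: 632 to 859 of 18120 genes had equal values.

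Levels are means with SD over 3 libraries. Calls need an adjusted p under 0.05 and a log2 fold change of 1 or more in size. Promoter windows from RefSeq (GRCh38.p14) were searched for motifs given as letters, counted per gene over its windows. Gene neighbours came from the RefSeq gene table, in which all 48 genes matched. The members, gene lists and motifs were chosen with earlier results of these data known. The named genes are all 48 members, plus up to 4 of each pathway list and markers; a few further ones were chosen after their values were seen. Counting and motif search were tested on simulated data. Alternatives were other thresholds, centring, scaling, leaving out replicates, pseudocounts and motif forms. Python 3.11.15, NumPy 2.4.6, pandas 2.3.3 and matplotlib 3.10.9 were used. Some genes of the pathway lists are not reported here.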

Additional observations from a re-analysis of the deposited data

How the results depend on the processing

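The 43 genes higher and 0 lower were within 1.5 times of these counts at an adjusted p under 0.01, with no minimum fold change, among genes at 1 FPKM or more, with adjustment over those genes and with fold changes centred on the median; a minimum of 2 on the log2 scale left 24 of them higher. The median log2 fold change of 2.0 became 2.08 without the 2 genes under 1 FPKM and 1.96 after centring. Leaving out each replicate left 46 genes at 1 FPKM or more. This could not have come out otherwise, since the means nearest 1 FPKM were 0.283 for LAMP3 and 5.38 for MX1. Median-ratio scaling moved no gene's mean level beyond its SD, but its factors, 0.9945 to 1.0057, were too near 1 to do so. The deviation of replicate 1 was -0.11 with a pseudocount of 1 or 0.1. No paired analysis was possible because the labels list 1 group of samples and the 3 columns named as monolayer match none of them. The authors' fold changes were not recomputed without single libraries, since those columns were not used. Unknown depth limits what can be said of EPSTI1, LAMP3 and the interferon ligands.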
